A study of Mus musculus with 61 samples.

Results

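The solute carrier family 25 (Slc25) holds the carrier proteins that move nucleotides, phosphate, carboxylates, amino acids, cofactors and iron across the mitochondrial inner membrane. Its members were taken as the genes of the deposited count table whose symbol is Slc25a followed by a number, leaving out Slc25a20, the carnitine-acylcarnitine carrier. The pattern matched 45 genes, so 44 members remained among the 19462 genes of the table. RNA of skeletal muscle had been sequenced in 61 libraries of 8 inbred mouse strains, the founders of the Diversity Outbred population. The strains are named as in the labels: 129, AJ, B6, NZO and WSB with 8 libraries each, and NOD, Cast and PWK with 7 each. All mice had been kept on a high-fat, high-sugar diet, labelled 45 percent fat, and the labels mark no control strain. Each strain was therefore set against the mean of the other 7, weighted equally, and the question is how carrier transcript levels differ between strains kept on it. Of these strains, 129, AJ, B6, NOD and NZO are classical laboratory strains, NZO being an obese and NOD an autoimmune diabetes-prone strain, whereas Cast, PWK and WSB are wild-derived. The labels gave no sex or age and did not say that each library was a separate animal, so p-values here reflect only how far these libraries vary, in part perhaps technically.

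Mitochondrial carriers share a fold made of repeated pairs of membrane helices and are built from nuclear genes, imported through the outer membrane and inserted by the TIM22 complex. In muscle the ADP/ATP carrier exports the ATP made by oxidative phosphorylation and the phosphate carrier brings in the phosphate that ATP synthase needs. The aspartate-glutamate and oxoglutarate-malate carriers form the malate-aspartate shuttle, which moves reducing equivalents from glycolysis into mitochondria. Not every relative sits in that membrane, since Slc25a17 is peroxisomal and Slc25a46 lies in the outer membrane. In whole muscle a lower level may mean fewer cells of a type or less RNA per cell, which cannot be told apart.

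Library totals ran from 17.1 to 65.2 M estimated counts, with a median of 33.7 M. Muscle markers were abundant in each library, their 7 transcripts summing to 60490 to 169700 CPM (counts scaled to a common normalised library total), with Acta1 at 17160 CPM or more. Other cell types also left transcripts: the 12 hepatocyte markers summed to 9.265 to 2203 CPM in 58 libraries and to 6821, 4803 and 4497 CPM in Cast 3, WSB 5 and Cast 1. The 7 white adipocyte markers had a median sum of 459 CPM in WSB and 411 CPM in Cast, against medians of 98.0 to 205 CPM in the other strains. The 6 brown adipocyte markers had medians of 101 CPM in WSB and 83.9 CPM in Cast, against 6.34 to 14.8 CPM elsewhere. Among the 7 Cast libraries, numbers 1, 5 and 6 stood apart in several carriers, as described with that strain, and Cast 5 and Cast 6 had the highest correlation of any Cast pair across 12900 genes (r = 0.979, range over pairs 0.868 to 0.979). Cast 1 correlated more with Cast 3 (0.961) and Cast 2 (0.957) than with Cast 5 (0.939) or Cast 6 (0.928).

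Slc25a4, the ADP/ATP carrier isoform of heart and muscle, was by far the most abundant member, in CPM and per kilobase of exon. Exon length here is that of all annotated exons of a gene merged, which can exceed the length of any transcript. The order and shares below depend on it: in CPM alone Slc25a12 (463.2) lay above Slc25a11 (195.5). Averaged over the 8 strain means it reached 965 CPM per kilobase of exon, which was 69.3% of the summed level of the family. Slc25a3, the phosphate carrier, followed with 107 CPM per kilobase. Slc25a11, the oxoglutarate-malate carrier, had 92.2 CPM per kilobase. Slc25a12, the aspartate-glutamate carrier of excitable tissues known as aralar, had 63.1 CPM per kilobase. The next in order were Slc25a5 at 23.4, Slc25a25 at 18.0, Slc25a39 at 12.1 and Slc25a51 at 11.3 CPM per kilobase, so the 4 leading genes were the carriers of ATP and phosphate and those of the malate-aspartate shuttle. The summed family level per kilobase lay between strain means of 1276 ± 46.6 in AJ and 1491 ± 156 in PWK (SD, n = 8 and 7). Slc25a4 made up 64.5 ± 3.89% of it in Cast and 68.4 to 71.1% in the other strains.

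**Figure D1:**
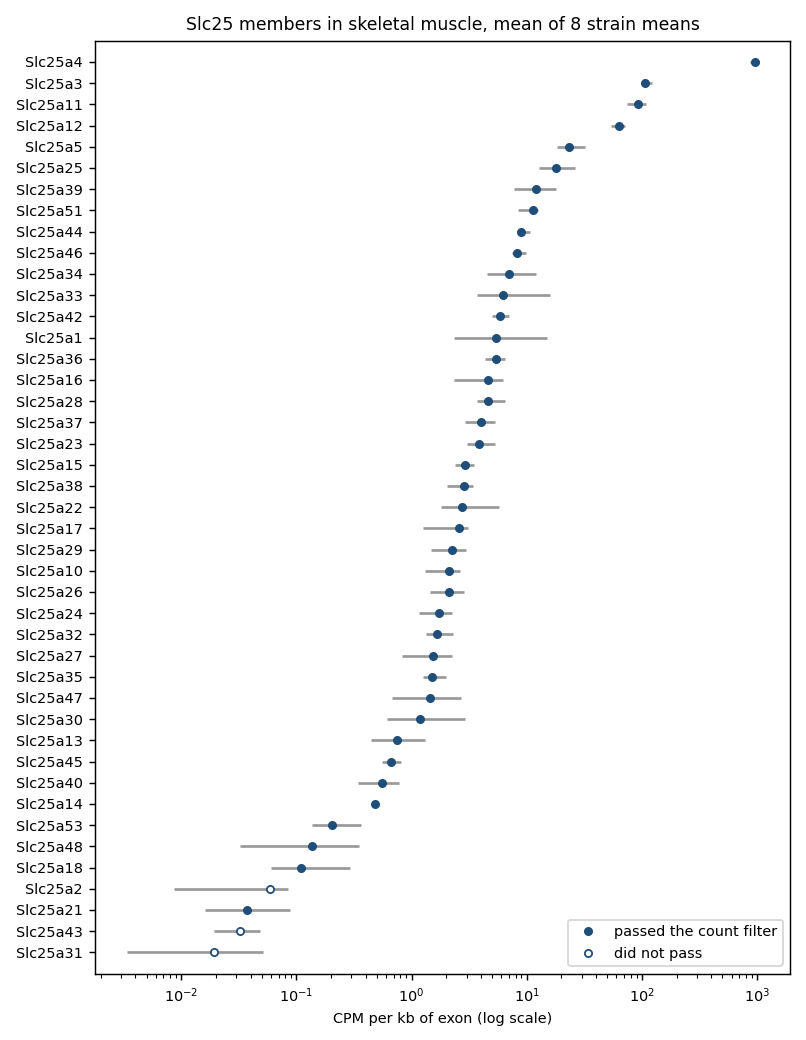
Level of 43 of the 44 Slc25 members in CPM per kilobase of exon on a log scale, with a dot for the mean of the 8 strain means and a line from the lowest to the highest strain mean. Slc25a4 stands at 965 CPM per kilobase, followed by Slc25a3 at 107, Slc25a11 at 92.2 and Slc25a12 at 63.1.

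Of the 44 members, 41 passed the filter on low counts. Slc25a31, the testis ADP/ATP carrier, averaged 0.041 CPM, Slc25a43 0.0577 CPM and Slc25a2, an ornithine carrier, 0.0808 CPM, and these 3 were not tested. Among all 8 strains, 36 of the 41 tested members differed (adjusted p under 0.05, edgeR quasi-likelihood test), which is 87.8% of them, beside 85.5% of all genes tested. Of the members, 18 both differed and spanned at least 1 log2 unit between the highest and lowest strain, beside 39.7% of all genes. The median log2 range over strains was 0.98 for the members and 0.91 for all genes, so the members' count and range lay near those of all genes. Slc25a14 (adjusted p = 0.892), Slc25a47 (0.181), Slc25a15 (0.167), Slc25a21 (0.0904) and Slc25a44 (0.0557) did not pass. All of these but Slc25a14 passed in some alternative fit, Slc25a44 with DESeq2 (adjusted p = 0.028). Slc25a25 (0.0493), Slc25a10 (0.0485), Slc25a13 (0.0472) and Slc25a45 (0.0422) passed narrowly. Their calls were lost in 40, 36, 37 and 18 of the 61 fits that left out 1 library. Of the variance in log2 level, 96.5% lay between strains for Slc25a16, 82.6% for Slc25a26, 79.9% for Slc25a40 and 79.7% for Slc25a39. For Slc25a14, a relative of the uncoupling proteins, 5.0% did.

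**Figure D2:**
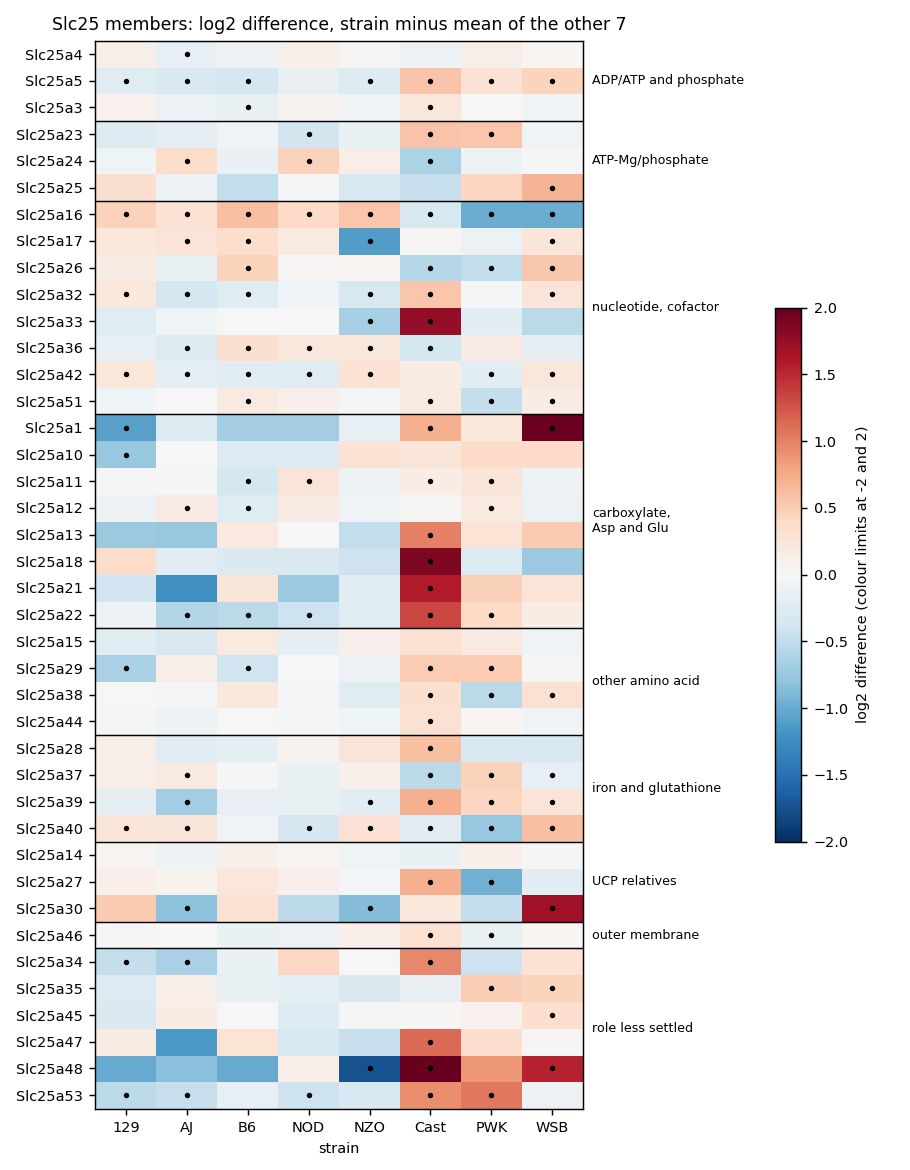
Log2 difference of each strain minus the mean of the other 7 (columns) for 40 of the 41 tested members (rows grouped by role), with the colour scale limited to 2 in either direction and a dot where the adjusted p was under 0.05. Slc25a16 is higher in the 5 classical strains and lower in the 3 wild-derived ones, and Cast holds the most dots, 29 of 40.

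The nucleotide and cofactor carriers include the 2 members with the largest share of variance between strains, Slc25a16 and Slc25a26. Slc25a16, long known as the Graves disease carrier protein and linked to coenzyme A in mitochondria (chr10:62920633-62946498, plus strand, GRCm38), was highest in B6 and lowest in PWK and WSB. In WSB its libraries ran from 10.3 to 12.5 CPM with a median of 11.2, and in PWK from 10.3 to 11.9 CPM with a median of 11.7. In Cast they ran from 14.3 to 22.3 CPM with a median of 16.4. In B6 they ran from 26.3 to 32.7 CPM with a median of 29.7, and the lowest library of any classical strain, in AJ, had 21.8 CPM. Each PWK and WSB library thus lay below each library of the 6 other strains, and among the wild-derived strains only Cast reached the classical range, with its highest library. The log2 difference from the other 7 was -0.99 in WSB (SE 0.048, adjusted p = 3.73e-25) and -0.99 in PWK (SE 0.051, adjusted p = 3.06e-24). It was -0.31 in Cast (SE 0.048, adjusted p = 1.99e-07). Of the classical strains, B6 rose most, with 29.7 ± 1.89 CPM against 20.9 ± 7.54 CPM over the other 7 strain means (log2 difference 0.60, SE 0.042, adjusted p = 6.06e-18). NZO came next with 28.7 ± 2.13 CPM, against 21 ± 7.71 CPM in the others (log2 difference 0.55, SE 0.042, adjusted p = 3.1e-16). In 129, NOD and AJ the difference was 0.46, 0.39 and 0.29. Whether reads of the wild-derived strains mapped to the GRCm38 build as well as those of the others was not tested. This limit holds for Slc25a16 and for each other member.

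**Figure D3:**
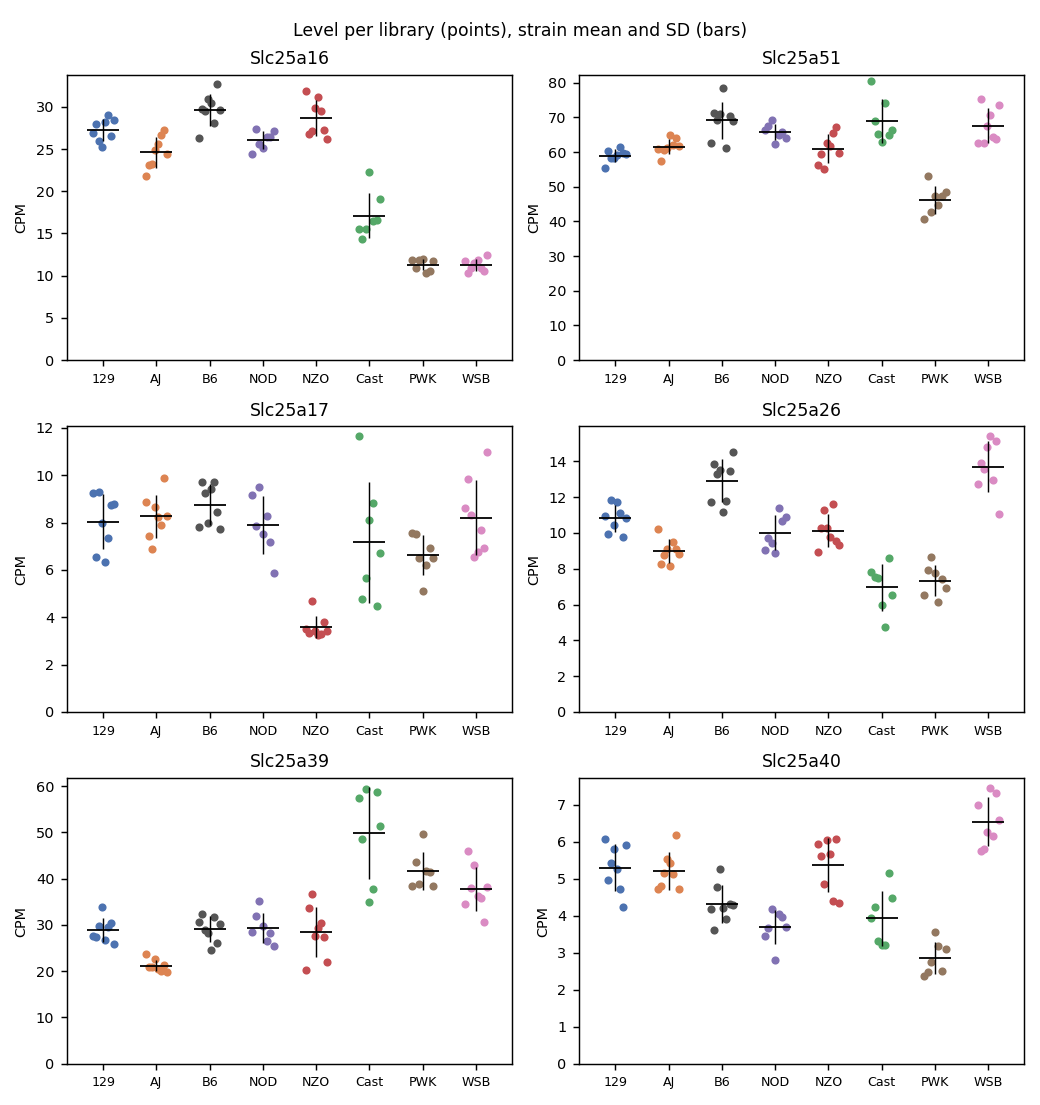
Level in CPM of Slc25a16, Slc25a51, Slc25a17, Slc25a26, Slc25a39 and Slc25a40 in each of the 61 libraries by strain, with bars for the strain mean and SD. All PWK libraries of Slc25a51 lie below 55.2 CPM, the lowest library of the other strains, and the NZO libraries of Slc25a17 centre on 3.42 CPM.

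Slc25a51, which carries NAD+ into mitochondria (chr4:45395923-45408766, minus strand), was the only 1 of the 41 tested members for which all libraries of one strain lay outside those of all others. Over all tested genes, 5.74% were apart in this way in some strain and 0.917% lay below all others in PWK. PWK had 40.8, 42.7, 44.7, 47.2, 47.2, 48.5 and 53 CPM, and the lowest of the 54 other libraries had 55.2 CPM. Its mean was 46.3 ± 4.03 CPM in PWK, against 64.7 ± 4.16 CPM over the other 7 strain means (log2 difference -0.48, SE 0.042, adjusted p = 8.16e-15). This is a change of modest size in a gene with the smallest spread within strains of any tested member, an SD of 0.095 on the log2 scale. In B6 (69.2 CPM) the log2 difference was 0.18. In Cast (69.0 CPM) it was also 0.18 and in WSB 0.14, but with the summed markers of other cell types as covariates (the marker sums) these were 0.04 (adjusted p = 0.641) and 0.02 (adjusted p = 0.857). A small RNA gene, Gm25692, lies within its exons on the same strand.

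Slc25a17, the peroxisomal carrier of coenzyme A, FAD and NAD (chr15:81318921-81360765, minus strand), fell in NZO. Its NZO libraries ran from 3.25 to 4.68 CPM with a median of 3.42, and all but NZO 3 lay below the lowest of the other libraries, a Cast library at 4.46 CPM. The mean was 3.59 ± 0.473 CPM in NZO, against 7.85 ± 0.725 CPM over the other 7 strain means (log2 difference -1.12, SE 0.106, adjusted p = 6.46e-13). NZO libraries also stood out in fibre type, since 10 of 11 slow oxidative fibre markers rose there and their summed median was 6713 CPM, against 3834 to 5734 CPM in the other strains. Slc25a17 had a correlation of -0.451 with that sum over the 61 libraries, and of 0.089 within strains. Fibre type and strain cannot be told apart in NZO, and the part of fibre type in the Slc25a17 level was not tested.

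Slc25a26, the S-adenosylmethionine carrier, rose in WSB and B6 and fell in Cast and PWK. Slc25a26 had 13.7 ± 1.45 CPM in WSB, against 9.59 ± 2.06 CPM in the others (log2 difference 0.54, SE 0.058, adjusted p = 2.03e-11). In Cast it had 6.96 ± 1.30 CPM, against 10.6 ± 2.20 CPM in the others (log2 difference -0.57, SE 0.068, adjusted p = 1.82e-10, and -0.35 with the marker sums as covariates). In PWK it had 7.33 ± 0.873 CPM, against 10.5 ± 2.29 CPM in the others (log2 difference -0.49, SE 0.068, adjusted p = 1.83e-08). Cast libraries ran from 4.75 to 8.62 CPM and WSB libraries from 11.1 to 15.4 CPM, with no overlap between these strains. Lrig1 overlaps Slc25a26 on the opposite strand. Slc25a32, a folate and FAD carrier, rose in Cast (log2 difference 0.55, SE 0.066, adjusted p = 2.6e-10, and 0.29 without Cast 1, 5 and 6) and fell in AJ (-0.35) and NZO (-0.32). Its differences of 0.26 in WSB, 0.21 in 129 and -0.24 in B6 lost the call with the marker sums as covariates (adjusted p = 0.2, 0.0604 and 0.151), that in 129 also without 129 9.

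Slc25a42, another coenzyme A carrier, changed in 7 of the 8 comparisons, by 0.30 at most in either direction on the log2 scale. The calls in AJ, B6, NOD and WSB were lost with the marker sums as covariates (adjusted p = 0.101, 0.295, 0.161 and 0.549). Each of those in 129, AJ, B6, NOD and PWK was lost without 1 library or another (129 3 or 7, AJ 1, 2, 3, 5, 6 or 8, B6 4, NOD 4, PWK 1 or 6), so that the NZO rise alone held in all of these fits. It averaged 42.0 ± 7.54 CPM in NZO, against 34.5 ± 4.81 CPM in the others (log2 difference 0.30, SE 0.071, adjusted p = 0.00102). Slc25a36, a pyrimidine nucleotide carrier with a near-identical pseudogene elsewhere, had 62.4 ± 15.3 CPM in B6, against 50.1 ± 7.56 CPM in the others (log2 difference 0.33, SE 0.081, adjusted p = 0.00143). In Cast it had 41.2 ± 5.71 CPM, against 53.1 ± 7.7 CPM in the others (log2 difference -0.35, SE 0.091, adjusted p = 0.000695). Slc25a33, the other pyrimidine nucleotide carrier, is described with Cast. All 9 nucleotide and cofactor carriers differed among strains, beside 85.5% of all genes.

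The promoters of 4 members on which these results turn are shown to set their sequences beside their levels: Slc25a16 and Slc25a17 as above, Slc25a1 as the member of widest range among those of at least 1 CPM, and Slc25a12 as a leading shuttle carrier. Each is the 250 bases before the RefSeq gene start in the GRCm38.p6 reference, which is C57BL/6J sequence and not that of the other strains, written 5' to 3' on the gene's strand. Capitals mark a CCAAT box, or ATTGG where it lies on the other strand. The windows are chr10:62920383-62920632 (plus strand) for Slc25a16, chr15:81360766-81361015 (minus) for Slc25a17, chr16:17928220-17928469 (minus) for Slc25a1 and chr2:71367756-71368005 (minus) for Slc25a12.
Slc25a16: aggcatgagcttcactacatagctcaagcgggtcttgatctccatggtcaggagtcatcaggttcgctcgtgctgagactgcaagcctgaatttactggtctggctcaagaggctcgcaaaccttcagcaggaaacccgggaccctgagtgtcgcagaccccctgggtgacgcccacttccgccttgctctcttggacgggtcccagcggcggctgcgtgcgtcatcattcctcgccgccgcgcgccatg
Slc25a17: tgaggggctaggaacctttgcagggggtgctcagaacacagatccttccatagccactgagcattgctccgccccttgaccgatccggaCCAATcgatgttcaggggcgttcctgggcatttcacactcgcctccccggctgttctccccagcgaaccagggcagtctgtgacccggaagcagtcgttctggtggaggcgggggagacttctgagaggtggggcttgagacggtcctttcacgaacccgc
Slc25a1: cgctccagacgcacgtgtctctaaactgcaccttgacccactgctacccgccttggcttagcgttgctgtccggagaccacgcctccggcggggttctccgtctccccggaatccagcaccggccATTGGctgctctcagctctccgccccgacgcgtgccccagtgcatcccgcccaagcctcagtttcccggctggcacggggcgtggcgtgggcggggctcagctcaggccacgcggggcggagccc
Slc25a12: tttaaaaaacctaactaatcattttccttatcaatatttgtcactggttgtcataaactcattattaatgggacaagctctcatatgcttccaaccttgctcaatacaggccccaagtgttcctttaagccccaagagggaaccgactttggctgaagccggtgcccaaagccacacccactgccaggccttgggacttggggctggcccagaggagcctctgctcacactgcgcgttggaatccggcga
Slc25a17 and Slc25a1 held 1 CCAAT box each, and Slc25a16 and Slc25a12 held none of the motifs searched. A window was listed for 34 of the 44 members, 44 windows in all. On either strand, CCAAT occurred in 21 of the 44 member windows, from 18 members, and in 33.8% of all 32851 windows. The NRF-1 core (GCGC, any base, then TGCGC), the element of a regulator of respiratory genes, occurred in Slc25a3 and Slc25a31 and in 3.74% of all windows. TATAAA occurred in Slc25a18 and Slc25a21 and in 12.4% of all windows, and TCACNCCAC, a sterol response element, in Slc25a18 and in 1.05% of all windows. TNAAGGTCA, a site of the oestrogen-related receptors, occurred in none of the 44 windows and in 1.14% of all windows. These are letter matches only.

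The ADP/ATP and phosphate carriers changed little in proportion to their abundance. Slc25a4 had 1953 to 2240 CPM in AJ with a median of 2033, against strain medians of 1989 to 2409 CPM elsewhere. Its mean was 2055 ± 102 CPM in AJ, against 2302 ± 130 CPM in the others (log2 difference -0.16, SE 0.059, adjusted p = 0.0308). That call was lost without AJ 1, 2, 3 or 4 (adjusted p = 0.0545 to 0.0651), and no other strain differed in Slc25a4. Slc25a3 rose in Cast, with 679 ± 81.3 CPM against 581 ± 32.4 CPM in the others (log2 difference 0.23, SE 0.054, adjusted p = 0.000284, and 0.43 with the marker sums as covariates). It had 541 ± 46.9 CPM in B6, against 601 ± 43.8 CPM in the others (log2 difference -0.15, SE 0.053, adjusted p = 0.0298), a call that was lost without B6 1, 2 or 5 (adjusted p = 0.0747 to 0.0963). Slc25a5, the more widely expressed ADP/ATP carrier, varied more, with log2 differences of 0.56 in Cast, 0.44 in WSB and 0.29 in PWK and of -0.35 to -0.24 in B6, AJ, NZO and 129. The call in 129 was lost with the marker sums as covariates (adjusted p = 0.0678). In WSB it had 46.4 to 54.4 CPM with a median of 48.2, above each library of 129, AJ, B6, NOD and NZO, of which the highest had 39.9 CPM. Cast libraries ran from 36.2 to 78.4 CPM. Slc25a5 has 3 near-identical processed pseudogenes, so part of its reads may have been assigned elsewhere.

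Slc25a11 and Slc25a12, the abundant carriers of the malate-aspartate shuttle, were lowest in B6. Slc25a11 had 123 to 170 CPM in B6 with a median of 162, and 157 ± 15.3 CPM on average, against 201 ± 19.6 CPM in the others (log2 difference -0.35, SE 0.056, adjusted p = 1.05e-06). In NOD it had 205 to 243 CPM and 228 ± 13.2 CPM on average, against 191 ± 21.8 CPM in the others (log2 difference 0.26, SE 0.056, adjusted p = 0.000273). The NOD difference was 0.13 (adjusted p = 0.232) with the marker sums as covariates. In PWK Slc25a11 had 224 ± 20.0 CPM, against 191 ± 22.8 CPM in the others (log2 difference 0.235, adjusted p = 0.000479), a call kept in every fit. In Cast its log2 difference was 0.14 (adjusted p = 0.0253), and 0.07 (adjusted p = 0.372) without Cast 3, Cast 1 and WSB 5. It was larger with the marker sums as covariates (0.32) and without Cast 1, 5 and 6 (0.24). The Cast call was lost in 6 of the 61 fits that left out 1 library. The B6 and NOD libraries of Slc25a11 did not overlap. Rnf167 overlaps it on the opposite strand. Slc25a12 had 399 ± 41.4 CPM in B6, against 472 ± 40.1 CPM in the others (log2 difference -0.24, SE 0.069, adjusted p = 0.00723). In PWK it had 519 ± 39.8 CPM, against 455 ± 42.4 CPM in the others (log2 difference 0.19, SE 0.071, adjusted p = 0.0231, and 0.0765 and 0.0757 without PWK 2 and PWK 4). In AJ its log2 difference of 0.17 lost the call in 32 of the 61 fits that left out 1 library. Across the 61 libraries, as deviations from strain means, Slc25a4 and Slc25a11 had a correlation of 0.794, Slc25a11 and Slc25a12 of 0.711 and Slc25a3 and Slc25a4 of 0.701. These points share library depth and scaling, and Slc25a4 had a correlation of 0.571 with the summed fast fibre markers.

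Citrate and dicarboxylate carriers correlated with white adipocyte transcripts within strains. Slc25a1, the citrate carrier that supplies acetyl groups for fatty acid synthesis (chr16:17925211-17928219, minus strand), had 13.8 to 52.2 CPM in WSB with a median of 30.4. In 129 it had 2.76 to 7.93 CPM with a median of 4.90. The WSB libraries lay above all of 129 and B6 and overlapped with the highest ones of the other strains. The mean was 32.2 ± 13.4 CPM in WSB, against 8.75 ± 3.44 CPM in the others (log2 difference 1.96, SE 0.271, adjusted p = 3.11e-08). It was 5.04 ± 1.91 CPM in 129, against 12.6 ± 9.14 CPM in the others (log2 difference -1.09, SE 0.353, adjusted p = 0.0167). White adipocyte markers stood beside this: 6 of 7 rose and 1 fell in WSB, and 5 of 7 fell in 129. Their sum had a correlation of 0.853 with Slc25a1 over the 61 libraries as deviations from strain means. With the marker sums as covariates the log2 difference was 0.58 in WSB (adjusted p = 0.155) and 0.05 in 129 (adjusted p = 0.882). The marker sums themselves differ between strains, so adipocyte content and strain cannot be told apart in such a fit. The part of adipocytes in the levels of these carriers was not tested. Slc25a10, the dicarboxylate carrier, had 4.50 ± 2.02 CPM in 129, against 7.68 ± 1.30 CPM in the others (log2 difference -0.76, SE 0.259, adjusted p = 0.0242). Its correlation with the white adipocyte sum was 0.775, and with the marker sums as covariates the difference was -0.17 (adjusted p = 0.54). The call was also lost without 129 1, 3 or 6 (adjusted p = 0.0609 to 0.0725), and Gm11788 overlaps Slc25a10 on the opposite strand. In Cast, Slc25a1 had a log2 difference of 0.72 (adjusted p = 0.0424), which was 0.29 (adjusted p = 0.458) without Cast 7.

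Slc25a22, a glutamate carrier, had 17.9 to 63.0 CPM in Cast with a median of 28.5, and 34.4 ± 16.5 CPM on average, against 14.0 ± 3.21 CPM in the others (log2 difference 1.33, SE 0.116, adjusted p = 7.75e-15). It was lower in AJ with 10.8 ± 2.04 CPM, against 17.4 ± 8.04 CPM in the others (log2 difference -0.58, SE 0.130, adjusted p = 0.000358). In B6 it had 11.2 ± 2.27 CPM, against 17.3 ± 8.09 CPM in the others (log2 difference -0.53, SE 0.131, adjusted p = 0.00135). Slc25a18, the other glutamate carrier, was low throughout, with 0.557 ± 0.388 CPM in Cast, against 0.159 ± 0.035 CPM in the others (log2 difference 1.86, SE 0.370, adjusted p = 1.96e-05). That difference was 0.91 (adjusted p = 0.289) with the marker sums as covariates and 0.73 (adjusted p = 0.268) without Cast 1, 5 and 6. Atp6v1e1 overlaps Slc25a18 on the opposite strand. Slc25a13, the aspartate-glutamate carrier of liver known as citrin, had 0.353 to 15.3 CPM in Cast with a median of 3.17. Its mean was 4.94 ± 5.56 CPM in Cast, against 2.56 ± 0.782 CPM in the others (log2 difference 1.00, SE 0.369, adjusted p = 0.0163). The 2 highest Cast libraries were Cast 3 and Cast 1, the ones with the highest hepatocyte sums of that strain. Without Cast 3, Cast 1 and WSB 5 the difference was -0.29 (adjusted p = 0.574). Slc25a13 had a correlation of 0.843 with the hepatocyte sum within strains and Slc25a47, a carrier best known in liver, of 0.912. Slc25a47 had a log2 difference of 1.13 in Cast (adjusted p = 0.0296), which was -0.55 (adjusted p = 0.417) without these 3 libraries. Slc25a21, the oxodicarboxylate carrier, had 0.428 ± 0.635 CPM in Cast, against 0.147 ± 0.051 CPM in the others, and a correlation of 0.646 with the hepatocyte sum. Pax9 overlaps Slc25a21 on the opposite strand.

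**Figure D4:**
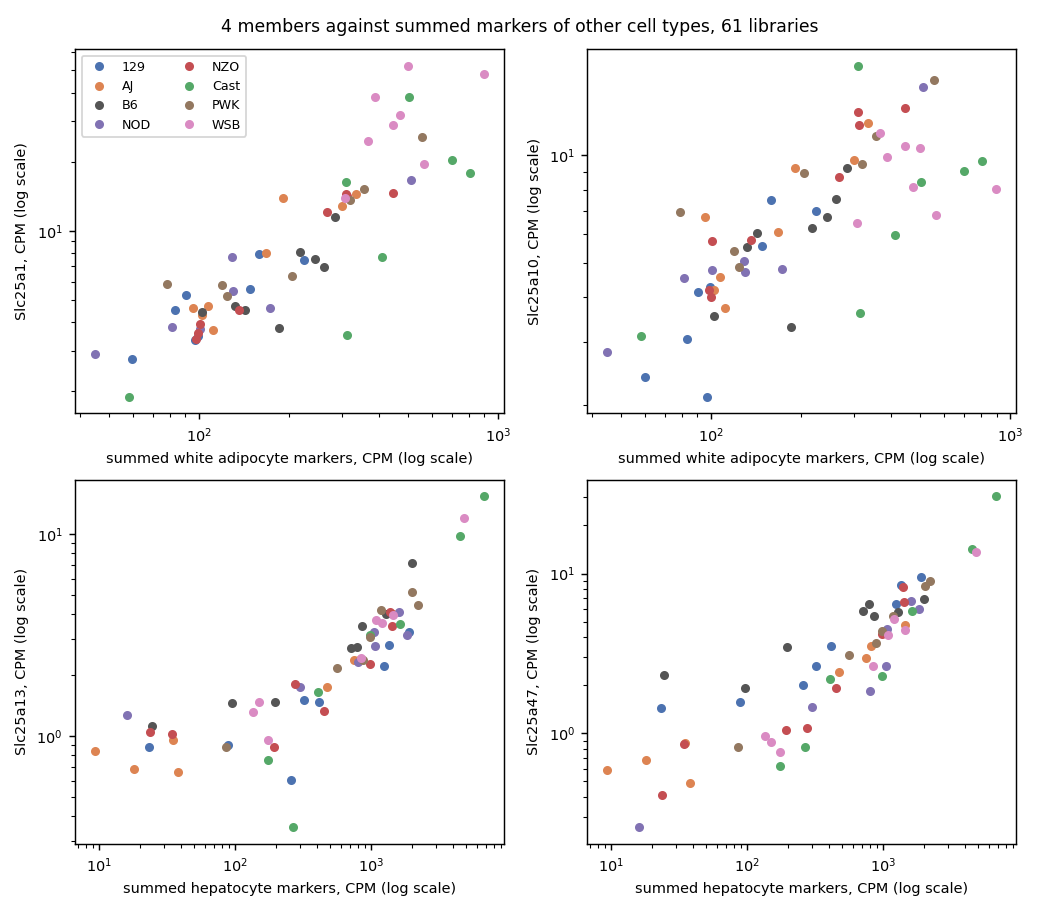
Level in CPM of Slc25a1 and Slc25a10 against the summed white adipocyte markers, and of Slc25a13 and Slc25a47 against the summed hepatocyte markers, in each of the 61 libraries on log axes. The within-strain correlations are 0.853, 0.775, 0.843 and 0.912, and the 3 libraries at the right of the hepatocyte panels are Cast 3, WSB 5 and Cast 1.

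Of the other amino acid carriers, Slc25a29, which carries basic amino acids, and Slc25a38, the glycine carrier of haem synthesis, differed among strains. Slc25a29 had 3.83 ± 0.574 CPM in 129, against 6.12 ± 1.22 CPM in the others (log2 difference -0.65, SE 0.130, adjusted p = 8.62e-05). In PWK it had 7.74 ± 1.28 CPM, against 5.57 ± 1.25 CPM in the others (log2 difference 0.51, SE 0.123, adjusted p = 0.000624). Cast had a like mean of 7.73 ± 3.82 CPM (log2 difference 0.51, adjusted p = 0.000351). That call was lost without Cast 5 (0.23) and without Cast 1, 5 and 6 (0.07, adjusted p = 0.703). Slc25a38 had 5.61 ± 0.570 CPM in PWK, against 8.18 ± 1.02 CPM in the others (log2 difference -0.54, SE 0.126, adjusted p = 0.00038). Slc25a15, the ornithine carrier, had strain means of 13.4 to 19.5 CPM, and Slc25a44, which carries branched-chain amino acids, had strain means of 29.7 to 37.9 CPM.

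Of the carriers for iron and glutathione, the glutathione carrier Slc25a39 was lowest in AJ and highest in Cast. AJ libraries ran from 19.8 to 23.7 CPM with a median of 21, and Cast libraries from 35.0 to 59.3 CPM with a median of 51.4. The mean was 21.2 ± 1.29 CPM in AJ, against 35.0 ± 8.34 CPM in the others (log2 difference -0.69, SE 0.076, adjusted p = 8.1e-11). It was 49.8 ± 9.94 CPM in Cast, against 30.9 ± 6.74 CPM in the others (log2 difference 0.72, SE 0.071, adjusted p = 5.63e-13). AJ overlapped with NZO, whose lowest library had 20.4 CPM. Slc25a40, the close relative of Slc25a39, ran otherwise, with 6.54 ± 0.661 CPM in WSB, against 4.38 ± 0.958 CPM in the others (log2 difference 0.61, SE 0.070, adjusted p = 1.79e-10). In PWK it had 2.86 ± 0.441 CPM, against 4.91 ± 0.992 CPM in the others (log2 difference -0.75, SE 0.084, adjusted p = 4.19e-11). The WSB and PWK libraries of Slc25a40 were apart, at 5.74 to 7.46 CPM and 2.38 to 3.57 CPM, and a processed pseudogene near-identical to it lies on another chromosome. Slc25a37, mitoferrin-1, had 31.8 ± 5.94 CPM in PWK, against 23.2 ± 3.19 CPM in the others (log2 difference 0.47, SE 0.069, adjusted p = 9.17e-08). In Cast it had 17.4 ± 3.89 CPM, against 25.3 ± 3.44 CPM in the others (log2 difference -0.53, SE 0.075, adjusted p = 2.33e-08). Of 7 tested erythroid markers, whose cells use mitoferrin-1, 4 rose and 1 fell in PWK, and 5 fell in Cast. In NOD 5 of the 7 rose and in NZO 4. Slc25a37 had 22.09 CPM in NOD, against 24.59 CPM in the others, and 25.45 CPM in NZO, against 24.11 CPM. Within strains Slc25a37 had a correlation of 0.107 with the erythroid sum. With the marker sums as covariates, the erythroid one among them, the Slc25a37 difference was 0.35 in PWK (adjusted p = 7.45e-06) and -0.30 in Cast (adjusted p = 0.00767). Slc25a37 shares sequence with 2 near-identical genes, of which Gm37847 is in the table.

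The ATP-Mg/phosphate carriers, which set the adenine nucleotide pool of the matrix under the control of calcium, went separate ways. Slc25a23 had 27.8 ± 3.39 CPM in PWK, against 19.3 ± 4.08 CPM in the others (log2 difference 0.55, SE 0.116, adjusted p = 9.56e-05). In Cast it had 28.2 ± 11.5 CPM, against 19.2 ± 3.93 CPM in the others (log2 difference 0.57, adjusted p = 2.58e-05). The Cast difference was 0.27 (adjusted p = 0.053) without Cast 3, Cast 1 and WSB 5. Within strains Slc25a23 had a correlation of 0.489 with the hepatocyte sum. Slc25a24 had 2.82 to 4.68 CPM in Cast with a median of 4.09, and 3.97 ± 0.592 CPM on average, against 6.21 ± 0.934 CPM in the others (log2 difference -0.63, SE 0.132, adjusted p = 4.13e-05). In NOD the log2 difference of Slc25a24 was 0.47 (adjusted p = 0.00258), and 0.12 (adjusted p = 0.414) without NOD 4, which had 17.5 CPM. Slc25a25, the most abundant of the 3 per kilobase, had 127 to 283 CPM in WSB, and 207 ± 47.8 CPM on average, against 132 ± 30.3 CPM in the others (log2 difference 0.68, SE 0.254, adjusted p = 0.0297). This call was lost without WSB 5, 6 or 9 (adjusted p = 0.0553 to 0.0794) and with the marker sums as covariates (adjusted p = 0.258). Its level varied widely within each strain, from 28.7 to 185 CPM in Cast and from 43.3 to 305 CPM in PWK.

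Among the uncoupling protein relatives, Slc25a30, a carrier known from kidney, had 4.80 to 24.2 CPM in WSB with a median of 11.9. The mean was 13.2 ± 7.10 CPM in WSB, against 4.30 ± 1.5 CPM in the others (log2 difference 1.69, SE 0.192, adjusted p = 1.36e-10). It was 2.87 ± 0.491 CPM in AJ, against 5.77 ± 3.54 CPM in the others (log2 difference -0.82, SE 0.239, adjusted p = 0.00565). NZO had 2.80 ± 0.651 CPM, against 5.78 ± 3.53 CPM in the others (log2 difference -0.86, SE 0.24, adjusted p = 0.00442). All WSB libraries lay above all AJ and NZO libraries, of which the highest had 3.87 CPM. Slc25a27, also called uncoupling protein 4, had 2.43 to 4.27 CPM in PWK with a median of 3.23, and 6 of these 7 lay below every other library. The mean was 3.24 ± 0.618 CPM in PWK, against 6.39 ± 1.20 CPM in the others (log2 difference -0.96, SE 0.128, adjusted p = 7.42e-09). Slc25a14 had strain means of 1.06 to 1.22 CPM.

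Of the members whose substrate is less settled, Slc25a53 (chrX:136981116-137038302, minus strand) rose in PWK and Cast. PWK libraries ran from 2.39 to 3.33 CPM with a median of 2.87, above each library of 129, AJ, B6, NOD, NZO and WSB, of which the highest had 2.09 CPM. The mean was 2.88 ± 0.317 CPM in PWK, against 1.44 ± 0.553 CPM in the others (log2 difference 1.06, SE 0.127, adjusted p = 3.93e-10). In Cast it was 2.67 ± 0.831 CPM, against 1.47 ± 0.630 CPM in the others (log2 difference 0.94, SE 0.129, adjusted p = 8.97e-09). Slc25a48 had low levels throughout, with 1.19 ± 0.475 CPM in Cast, against 0.361 ± 0.279 CPM in the others (log2 difference 2.03, SE 0.385, adjusted p = 8.41e-06). It had 0.877 ± 0.350 CPM in WSB, against 0.405 ± 0.380 CPM in the others (log2 difference 1.53, SE 0.377, adjusted p = 0.000844). With the marker sums as covariates these were 1.31 in Cast (adjusted p = 0.108) and 0.65 in WSB (adjusted p = 0.535). In NZO it had 0 to 0.25 CPM, and 0.110 ± 0.090 CPM on average, against 0.514 ± 0.392 CPM in the others, and it fell there (log2 difference -1.75, adjusted p = 0.00894, and -1.38, adjusted p = 0.0512, with the marker sums as covariates). Slc25a35 rose in PWK (log2 difference 0.49, SE 0.134, adjusted p = 0.00216) and in WSB (0.45, SE 0.127, adjusted p = 0.00324), and Slc25a45 rose in WSB (0.34, SE 0.121, adjusted p = 0.0208). With the marker sums as covariates Slc25a35 had -0.18 in WSB (adjusted p = 0.485) and Slc25a45 had 0.18 (adjusted p = 0.486). Slc25a34 is described with Cast. Slc25a46, the outer membrane member involved in mitochondrial dynamics, rose in Cast to 53.3 ± 8.33 CPM, against 43.1 ± 2.54 CPM in the others (log2 difference 0.31, SE 0.056, adjusted p = 4.41e-06), and without Cast 1, 5 and 6 the difference was 0.14 (adjusted p = 0.0834).

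Taken by strain, Cast changed most members: 23 rose and 7 fell, or 73.2% of the 41, beside 61.8% of all genes (33.8% higher and 27.9% lower). The median log2 difference in Cast was 0.30 over the members and 0.04 over all genes. In Cast 1, Cast 5 and Cast 6, several carriers stood far above the remaining Cast libraries. Slc25a33, a pyrimidine nucleotide carrier, had 73.9, 19.8 and 85.2 CPM in these 3, and 11.5, 6.31, 8.83 and 5.10 CPM in Cast 2, 3, 7 and 8. Slc25a28, mitoferrin-2, had 24.1, 35.4 and 63.0 CPM in the 3 and 11.1 to 13.5 CPM in the other 4. Slc25a34 had 63.9, 42.9 and 48.4 CPM in the 3 and 10.3 to 21.1 CPM in the other 4. Slc25a25 ran the opposite way, with 60.4, 32.3 and 28.7 CPM in the 3 and 97.2 to 185 CPM in the other 4. These libraries were singled out after their values were seen. Their summed muscle markers were 80679, 71875 and 80386 CPM, and those of the other 4 were 78596 to 104700 CPM. Their nerve and Schwann cell markers summed to 71.4, 53.1 and 53 CPM, and those of the other 4 to 100.1 to 155 CPM. With that sum Slc25a28 had a correlation of -0.517, Slc25a33 of -0.487 and Slc25a34 of -0.09 within strains, and its part in these levels was not tested.

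**Figure D5:**
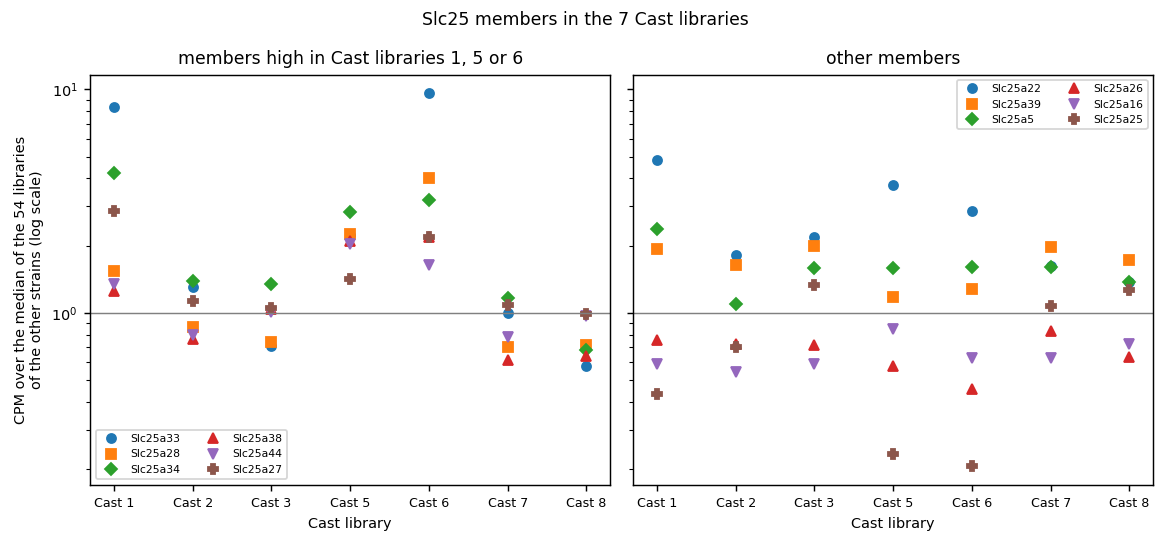
Ratio of each of the 7 Cast libraries to the median of the other strains' libraries, on a log scale, for 6 carriers that differ between Cast 1, 5 and 6 and the remaining libraries of the strain (left) and 6 other members (right). Of the latter, Slc25a22 is also higher in Cast 1, 5 and 6, with ratios of 4.82, 3.745 and 2.85, against 1.37 to 2.18 in the remaining libraries. Slc25a33 reaches ratios of 8.35 and 9.62 in Cast 1 and Cast 6, and Slc25a25 is at 0.435, 0.233 and 0.207 in Cast 1, 5 and 6.

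Over all 7 libraries, Slc25a33 averaged 30.1 ± 34.3 CPM in Cast, against 8.99 ± 1.35 CPM in the others (log2 difference 1.76, SE 0.219, adjusted p = 7.16e-10). Without Cast 1, 5 and 6 the log2 difference was -0.17 (adjusted p = 0.487). Slc25a34 averaged 32.1 ± 19.7 CPM in Cast, against 16.9 ± 4.14 CPM in the others (log2 difference 0.96, SE 0.172, adjusted p = 2.94e-06), and without these libraries the difference was 0.08 (adjusted p = 0.783). Slc25a28, Slc25a38 and Slc25a44 had log2 differences of 0.60, 0.32 and 0.30 in Cast. Without the 3 libraries these were -0.44, -0.37 and -0.16 (adjusted p = 0.000547, 0.00201 and 0.0466). The libraries were chosen because several carriers stood high in them, so lower differences without them were built in. The p-values of this fit therefore cannot decide whether the direction turned. The difference of Slc25a22 was 0.74 (adjusted p = 1.46e-06) without the 3 libraries. Of the 23 rises and 7 falls, 14 and 5 remained without the 3 libraries, among them those of Slc25a39, Slc25a5, Slc25a53, Slc25a32 and Slc25a48 as rises and of Slc25a16, Slc25a26 and Slc25a24 as falls. Without Cast 3, Cast 1 and WSB 5, the libraries with the highest hepatocyte sums, 17 and 6 remained. How many calls over all genes remained in such fits was not counted, here or for WSB and PWK below. These losses are therefore not particular to the carriers as far as was examined.

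WSB had 15 rises and 2 falls, or 41.5% of the members, beside 38.3% of all genes (21.4% higher and 17% lower), with a median log2 difference of 0.10 over the members and 0.02 over all genes. The falls were Slc25a16 and Slc25a37. With the marker sums as covariates, 4 of the 15 rises and 1 of the 2 falls remained. The white adipocyte, brown adipocyte and lymphocyte sums each had their highest median in WSB, that of the lymphocyte markers being 11.4 CPM in WSB, against 0.634 to 1.5 CPM elsewhere, and the part of each sum was not tested. The rises that remained were Slc25a5, Slc25a26, Slc25a30 and Slc25a40. PWK had 11 rises and 8 falls, or 46.3%, beside 41% of all genes (20.6% higher and 20.3% lower), and with the marker sums as covariates 11 and 7 of these remained. The median log2 difference in PWK was 0.12 over the members and 0.02 over all genes.

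In the classical strains fewer members changed. AJ had 6 rises and 10 falls, or 39.0%, beside 31.7% of all genes, and 4 rises and 11 falls when the ribosomal RNA gene Rn18s-rs5 was left out of the scaling. B6 had 5 rises and 8 falls (31.7%, beside 26.2%), NZO 4 and 7 (26.8%, beside 27.3%), 129 4 and 6 (24.4%, beside 25.6%) and NOD 4 and 5 (22.0%, beside 21.6%). Of all genes, 16.8% were higher and 14.9% lower in AJ, 15% and 11.2% in B6, 14.6% and 12.7% in NZO, 14.2% and 11.4% in 129, and 11.9% and 9.79% in NOD. The median log2 difference over the members was -0.13 in B6, -0.11 in AJ, -0.10 in NZO, -0.08 in 129 and -0.04 in NOD, against medians over all genes of -0.02 to 0.01. These contrasts share libraries, so a member high in Cast is lower in the others relative to their mean. Of the calls, 20 of 30 in Cast, 16 of 19 in PWK, 12 of 17 in WSB, 11 of 16 in AJ, 10 of 13 in B6, 8 of 11 in NZO, 6 of 10 in 129 and 3 of 9 in NOD held in each of the 61 fits that left out 1 library. The share of calls over all genes that held was not counted, so these counts show no trait of the carriers.

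Carriers with other names and the machinery around them varied too. All 6 tested relatives of the family (Slc25a20, Ucp1, Ucp2, Ucp3, Mtch1 and Mtch2) differed among strains, as did 85.5% of all genes, beside which the counts of the lists that follow stand. Ucp3, the uncoupling protein of muscle, had log2 differences of 0.69 in WSB (SE 0.145, adjusted p = 0.000109) and -0.73 in PWK (SE 0.174, adjusted p = 0.000494). Slc25a20 fell by 0.43 in AJ (SE 0.058, adjusted p = 2.24e-08). Ucp1, the defining marker of brown adipocytes, had log2 differences of 7.17 in WSB (adjusted p = 6.24e-16) and 5.29 in Cast (adjusted p = 8.09e-11). Of 12 carrier import genes 11 differed, Timm22 being the exception. Timm10, a chaperone of the intermembrane space that hands carriers on, stood 1.30 log2 units higher in Cast (SE 0.102, adjusted p = 1.35e-16). Timm13, another small chaperone there, had a log2 difference of -0.66 in WSB (SE 0.058, adjusted p = 2.45e-14). Of 20 other mitochondrial transporters 19 differed, with Sfxn1, a serine transporter, at 1.68 in WSB (SE 0.136, adjusted p = 1.42e-15). All 24 respiratory chain and citric acid cycle genes differed. In Cast 16 of them rose and 1 fell, beside 33.8% higher and 27.9% lower among all genes. In NOD 7 rose, beside 11.9%, in AJ 14 fell, beside 14.9%, and in B6 15 fell, beside 11.2%, with none of the opposite direction in these 3 strains.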

How the data were processed

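Frozen muscle was pulverised, RNA extracted, an ERCC spike-in added and polyadenylated RNA made into libraries with a KAPA mRNA HyperPrep kit, per the labels' protocols. The build was GRCm38 and DESeq2 was used in an unstated role, per the submitters' processing notes. Which aligner, counting tool, annotation and strand setting were used is not given in the sources used here. The authors deposited unscaled expected counts, 80.4% of them whole, which were rounded before testing. The authors' second deposited table, variance-stabilised values on a log2 scale (5.87 to 25.11), served 1 alternative test.

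Counts were tested with edgeR 4.0.16 in R 4.3.3 (quasi-likelihood F test, TMM, filterByExpr, 16682 genes, strain as the single factor, 53 residual degrees of freedom), with Benjamini-Hochberg adjustment over all genes in each comparison and a threshold of 0.05. The SE of a log2 difference is its size over the root of F. Levels are CPM on the TMM-adjusted total, and "the others" are the mean ± SD of 7 strain means. Correlations used log2(CPM + 0.1). Alternatives used DESeq2 1.42.0, limma 3.58.1, other filters and scalings, added near-identical copies, a replicate block, the GT20 number of the titles, and log2 sums of hepatocyte, white and brown adipocyte, lymphocyte, keratinocyte and erythroid markers ("marker sums"). The fits were tested on simulated counts.

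Members and lists were chosen with earlier results of these data known. Given in full are the 4 members highest per kilobase, the 10 of widest range at a mean of at least 1 CPM, and per strain up to 2 highest and 2 lowest calls of at least 0.5 in log2 size. Other members were described by role after their values were seen. One member, kept in all tests and counts, is not reported here.

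All 44 members were found in GENCODE M21, 34 with both ends equal. Exons of 12 overlap an opposite-strand gene. BLAST 2.17.0 (95% identity over 200 bases and 50% of the transcript) found near-identical copies of 4. Slc25a41, Slc25a52 and Slc25a54 were not analysed here.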

Additional observations from a re-analysis of the deposited data

Results flagged for a closer look

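In 160 groups (20 members in 8 strains) the highest or lowest library was set against its neighbours with Dixon's criterion, which chance passes in about 1 in 20 groups. It was passed by 13 groups, and each level is given with the nearest library of the same strain. NOD 3 was high in Slc25a1 (16.6 CPM, next 7.67) and in Slc25a10 (15.5 CPM, next 5.05), and its white adipocyte sum of 510 CPM was the highest of NOD. WSB 5 was high in Slc25a13 (12.0 CPM, next 3.95), beside its hepatocyte sum of 4803 CPM. The part of these cell types in those values was not tested for a single library.

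NOD 4 was high in Slc25a24 (17.5 CPM, next 6.92) and in Slc25a48 (1.64 CPM, next 0.292). B6 5 was high in Slc25a18 (0.717 CPM, next 0.254), B6 6 in Slc25a48 (0.716 CPM, next 0.205), B6 7 in Slc25a30 (15.4 CPM, next 7.78) and B6 3 in Slc25a34 (25.7 CPM, next 18.5). NOD 2 was high in Slc25a34 (37.2 CPM, next 25.9) and PWK 4 in Slc25a11 (266 CPM, next 225). NZO 3 had 4.68 CPM of Slc25a17, next 3.80, and was the single NZO library within the range of the other strains. Cast 8 was low in Slc25a3 (508 CPM, next 672).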

How the results depend on the processing

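The counts of members that changed were recomputed under 12 alternatives and in 61 fits that left out 1 library each. Of 166 results on single members, 164 kept direction and call with DESeq2 and also with its size factors, 157 with limma on the variance-stabilised values, 159 without the filter on low counts and 118 with marker sums as covariates. With 1 library left out, the counts ranged from 32 to 37 among all strains (36), 8 to 12 in 129 (10), 12 to 17 in AJ (16), 11 to 15 in B6 (13), 5 to 10 in NOD (9), 8 to 12 in NZO (11), 26 to 31 in Cast (30), 17 to 20 in PWK (19) and 13 to 17 in WSB (17). The low value in NOD came without NOD 8.

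With marker sums as covariates, 6 members changed in WSB, and of all genes 2671 in WSB (6391 without them), 6528 in Cast (10307) and 2024 in NOD (3610). The share of rises among member calls was then 63.6% in B6 (38.5%) and 65.0% in Cast (76.7%). Direction turned there for the range of Slc25a10 (-0.135), for Slc25a1 in 129 (0.053) and Cast (-0.236), and in WSB for Slc25a17 (-0.131), Slc25a35 (-0.185) and Slc25a37 (0.034). The next 2 alternatives were chosen after the data were seen. Without Cast 1, 5 and 6 direction turned for the ranges of Slc25a28 (-0.233) and Slc25a44 (-0.114) and in Cast for Slc25a28 (-0.437), Slc25a33 (-0.168), Slc25a38 (-0.365) and Slc25a44 (-0.161). Without Cast 3, Cast 1 and WSB 5 it turned for the range of Slc25a15 (-0.088) and in Cast for Slc25a13 (-0.29) and Slc25a47 (-0.55). The cause was not tested.

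With the replicate number as a block, 34 members differed among all strains and 13 in 129. The number is not a pairing in the labels: of 186 same-numbered pairs 72 had a correlation over 0.1, and 11 of 61 libraries correlated best with their own number.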

Other observations

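Some carriers varied together from library to library, taken as deviations of log2 CPM from strain means over 61 libraries, which share depth and scaling. Slc25a13 and Slc25a47 had a correlation of 0.918, and Slc25a13 and the ornithine carrier Slc25a15 one of 0.853. All of these also followed the hepatocyte sum, Slc25a15 with a correlation of 0.637. Slc25a1 and Slc25a10 had a correlation of 0.85. The pairs Slc25a28 and Slc25a33 (0.738) and Slc25a38 and Slc25a44 (0.724) were at 0.402 and 0.245 without Cast 1, 5 and 6, whereas Slc25a3 and Slc25a4 were at 0.828 without them, against 0.701 with them.

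Other carriers followed a marker list. Slc25a35 had a correlation of 0.619 with the brown adipocyte sum and of 0.583 with the white one. Slc25a45 had one of 0.561 with the lymphocyte sum, Slc25a25 one of 0.574 with the fast fibre sum and Slc25a3 one of -0.569 with the macrophage sum. Slc25a30, which rose in WSB, had a correlation of -0.294 with the white adipocyte sum and of -0.172 with the brown one. Its log2 difference in WSB with the marker sums as covariates was 2.08 (adjusted p = 2.08e-05), beside 1.69 without them.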
